A study of Mus musculus with 2 samples.

Results

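In the nucleoplasm of restimulated mouse macrophages, 28 protein-coding genes had 50% or more of their RNA, by transcript level, assigned to transcripts annotated as targets of nonsense-mediated decay (NMD). A gene was eligible if the annotation gave it both a protein-coding and an NMD transcript and its level was at least 5 TPM (a transcript level corrected for length and scaled to a fixed total) in both libraries, which left 2157 genes of 55450. It was a member if its NMD transcripts held 50% or more of its summed transcript TPM in each library. Genes named Srsf, Hnrnp, Rpl, Rps, Psm, Trim, Rab or Slc were left out, which removed 1 gene past both thresholds. The members were therefore chosen on the shares given here, which describe them and support nothing further. They were 1.3% of the eligible genes.

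NMD is a surveillance pathway of the cytoplasm that degrades mRNAs whose reading frame ends too early. In mammals a stop codon is usually read as premature when an exon junction complex, left behind by splicing, remains downstream of it. UPF1 and the SMG kinase and nuclease proteins carry out the decay once the ribosome has stopped. The pathway acts on translated RNA, and most RNA of the nucleoplasm has not yet met a ribosome. "NMD transcript" below means the annotated class, and decay itself was not measured.

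The cells were bone-marrow-derived macrophages of C57BL/6J mice, cultured from marrow progenitors. They received lipid A, the TLR4-binding part of bacterial endotoxin, at 100 ng/ml for 12 h, then a washout of 12 h, then lipid A at 100 ng/ml for 25 min. Total RNA of the nucleoplasmic fraction, which other labels call nuclear, was depleted of ribosomal RNA and sequenced in 2 libraries that form 1 group. Replicate 1 started from 500 ng and replicate 2 from 1 µg, so starting amount and replicate cannot be told apart, and both carry 1 donor entry, so their spread may be technical. No untreated or cytoplasmic sample was analysed here, and no difference between treatments or compartments is given. With 1 group of 2 libraries no test was run, and each difference is set beside the spread between the libraries. Unless stated otherwise, values come from the table in the layout that the program RSEM writes, and a second table per library, in the layout of the program kallisto, is set beside it. The annotated genes held 20130376 expected counts in replicate 1 and 19566152 in replicate 2, and the members had 146 to 21464 and 108 to 40174. All 7 macrophage markers were between 69.9 and 1640 TPM in both libraries. The 3 T cell markers were at 0, and no B cell, neutrophil or erythroid marker exceeded 0.7 TPM. The 4 stromal and endothelial markers reached at most 2.02 TPM.

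The members ranged from abundant interferon-response genes to genes just above the minimum. The median member had 21.6 TPM in replicate 1 and 17.8 in replicate 2, beside 20.3 and 16.8 TPM for the other 2129 eligible genes. In such bulk RNA, fewer cells of a type and less RNA per cell cannot be told apart. Their median NMD share was 66.4% in replicate 1 and 59.4% in replicate 2, and the shares ran from 50 to 93.0% and from 50 to 100%. The other eligible genes had a median of 2.80 and 3.67%, with an upper quartile of 11.9 and 12.7%. Over all 2157 genes, 1402 (65.0%) had under 5% in at least 1 library, and 174 (8.07%) had 25% or more in both.

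**Figure D1:**
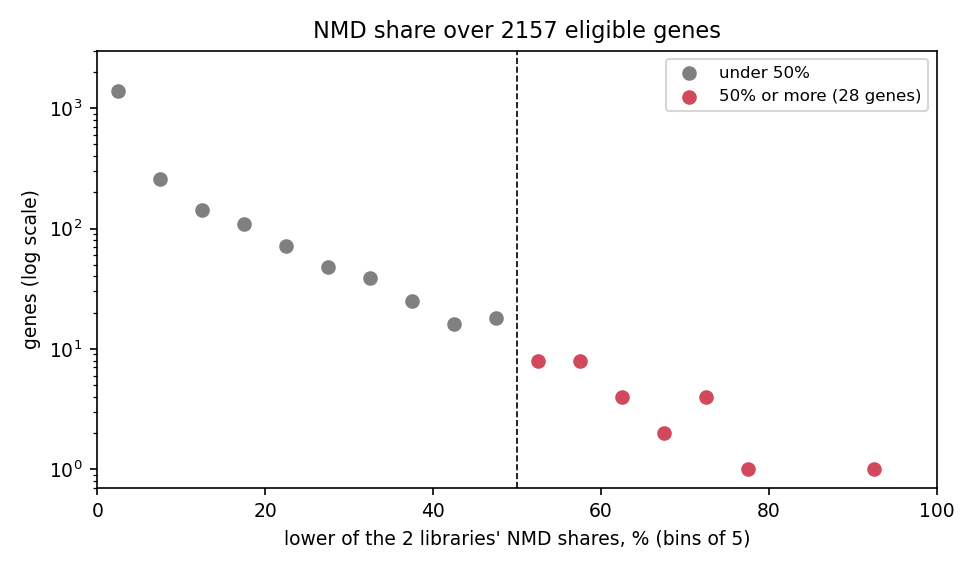
The lower of the 2 libraries' NMD shares (x axis, %, bins of 5) against the number of eligible genes in the bin (y axis, log scale, bins with no gene left out). The counts fall across the range with no gap at the dashed line at 50%, and the 28 members form the upper tail.

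Both sides of the threshold held similar genes. Just inside lay Gm38394 (50 and 50%), Mx1 (67.5 and 51.3%), Ppcdc (52.3 and 54.3%), Snapc3 (60.5 and 52.7%) and Selenoo (63.3 and 52.9%). Just outside lay Ddx5, an RNA helicase that acts in splicing, with 49.8% in replicate 1 and 61.3% in replicate 2 at 437 and 431 TPM. The others nearest below were Xrcc3 (49.6 and 62.5%), Tk2 (48.7 and 53.2%), Rnf41 (50.6 and 48.7%) and Gtpbp4 (62.2 and 48.5%). With these genes counted, 31 eligible genes reached 50% in replicate 1 alone and 15 in replicate 2 alone.

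The members' leading NMD transcripts had the layout that defines the class. In all 28 the annotated stop codon lay more than 50 bases before the last exon junction, at 56 bases in Ndufa3, 305 at the median and 3630 in Gm38394, and the same held for 2116 of 2129 other eligible genes (99.4%). A median of 2 junctions lay downstream of the stop. Against a reference coding transcript, taken as the longest coding sequence that shares the start codon where one does, the start codon was the same in 25 members (89.3%) and in 68.6% of the others. The coding sequence of the leading NMD transcript was a median 50.2% as long as the reference in members and 22.6% in the others. These 2 contrasts are not like for like. An incomplete start was annotated in 2 members and in 638 of the others. Where all NMD transcripts of a gene were at 0 TPM, as in Smg1, the leading one was not set by its level.

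The splicing differences between the leading NMD transcript and the reference were mixed. They were counted along the whole transcript, first and last exons included, so some do not bear on the stop. Splice-site changes at introns that span a skipped or extra exon were left out. The changes of 3′ splice site in Mill2 and Ndufa3 and the extra exon of Cdipt lay after the stop. The last reference exons skipped in Zdhhc3 and Ccdc167 did too. In Zdhhc3 and Rbmx only the last exon of the reference was skipped. The Cdipt exon was extra against its reference, Cdipt-205 (0.53 and 0 TPM), but not against Cdipt-201 (11.7 and 9.86 TPM). The leading NMD transcript used another 5′ splice site in 10 members (35.7%, and 17.9% of the others) and another 3′ splice site in 7 (25.0%, and 23.2%). It skipped exons of the reference in 9 (32.1%, and 39.5%), included extra exons in 6 (21.4%, and 30.6%) and retained an intron in 1, Sh2b3. None of these was found in Gm38394, Snapc3 and Evi2. The stop lay outside every exon of the reference in 8 members (28.6%) and in 36.8% of the others. Against the coding transcript with the highest level, it did so in 10 members (35.7%) and in 39.7% of the others. The reference was not chosen by its level, and Snapc3-201 and Ndufa3-202, for example, were at 0 TPM in both libraries. In 9 members (32.1%, and 40.3% of the others), Gm38394 among them, the NMD transcript contained no base outside the exons of the gene's coding transcripts.

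The stops of 8 members are given below in sequence. Each line gives the last 30 bases of the annotated reading frame of the leading NMD transcript, 5′ to 3′, from the GENCODE M21 transcripts (GRCm38), with the stop codon in capitals.
Mx1-205: atctgtagatggtccaaactgccttcgTAA
Oas1g-203: cactgtgggcttcatctgtacagagtgTAG
Gbp4-202: cgagggcctgggcgatgtggaaaagggTGA
Rnf114-203: tcatcctatctaagatccgggcccatgTGA
Bak1-201: tggccctgtacgtctaccagcgtggttTGA
Khnyn-203: aagtggatggcgatcatcagagagcggTGA
Fbxl4-205: ctgggcagctgtgtgatggtaagcactTGA
Pnpla2-201: ctgggtgatcttgagcagctagaacaaTGA
In Khnyn and Fbxl4 the exon of the NMD transcript ran on past the end of the coding exon, and the frame closed at once. The Khnyn frame shared 554 of its 555 codons with the reference of 671 codons, and the Fbxl4 frame 463 of 466 with a reference of 621. Oas1g was built the same way and read 45 coding bases into the extension, sharing 219 of 234 codons with a reference of 367. The extensions of Oas1g, Sh2b3, Khnyn and Fbxl4 all began with gt, the letters with which most introns start. The last 9 coding bases of Fbxl4, printed from base 19 of its line, lie in that extension.

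Against their references, the other stops of this set followed skipped exons, added exons or another 5′ splice site. Mx1-205 skipped 4 exons of its reference, Mx1-201. Against Mx1-202, the coding transcript with the highest level, it skipped 0 exons and included 2. Its counted change of 5′ splice site against Mx1-201 lay in the first exon, before the stop. The splice sites beside the 4 skipped exons also differed and were not counted. Mx1-205 shared 302 of its 309 codons with a reference of 627. Rnf114-203 skipped 1 exon and kept 47 of its 57 codons in common with a reference of 229. Gbp4-202 shared 61 of 103 codons with a reference of 631, after a change of 5′ splice site. Bak1-201 included an exon of 20 bases that no coding transcript holds, and shared 114 of 151 codons with a reference of 209. Pnpla2-201 included 1 extra exon and shared 63 of 70 codons with a reference of 486. Over the members, 24 shared at least 10 leading codons with the reference, and their NMD frames then held a median of 10 codons of their own, from 0 to 64. The stop was TGA in 16 members, TAA in 6 and TAG in 6.

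**Figure D2:**
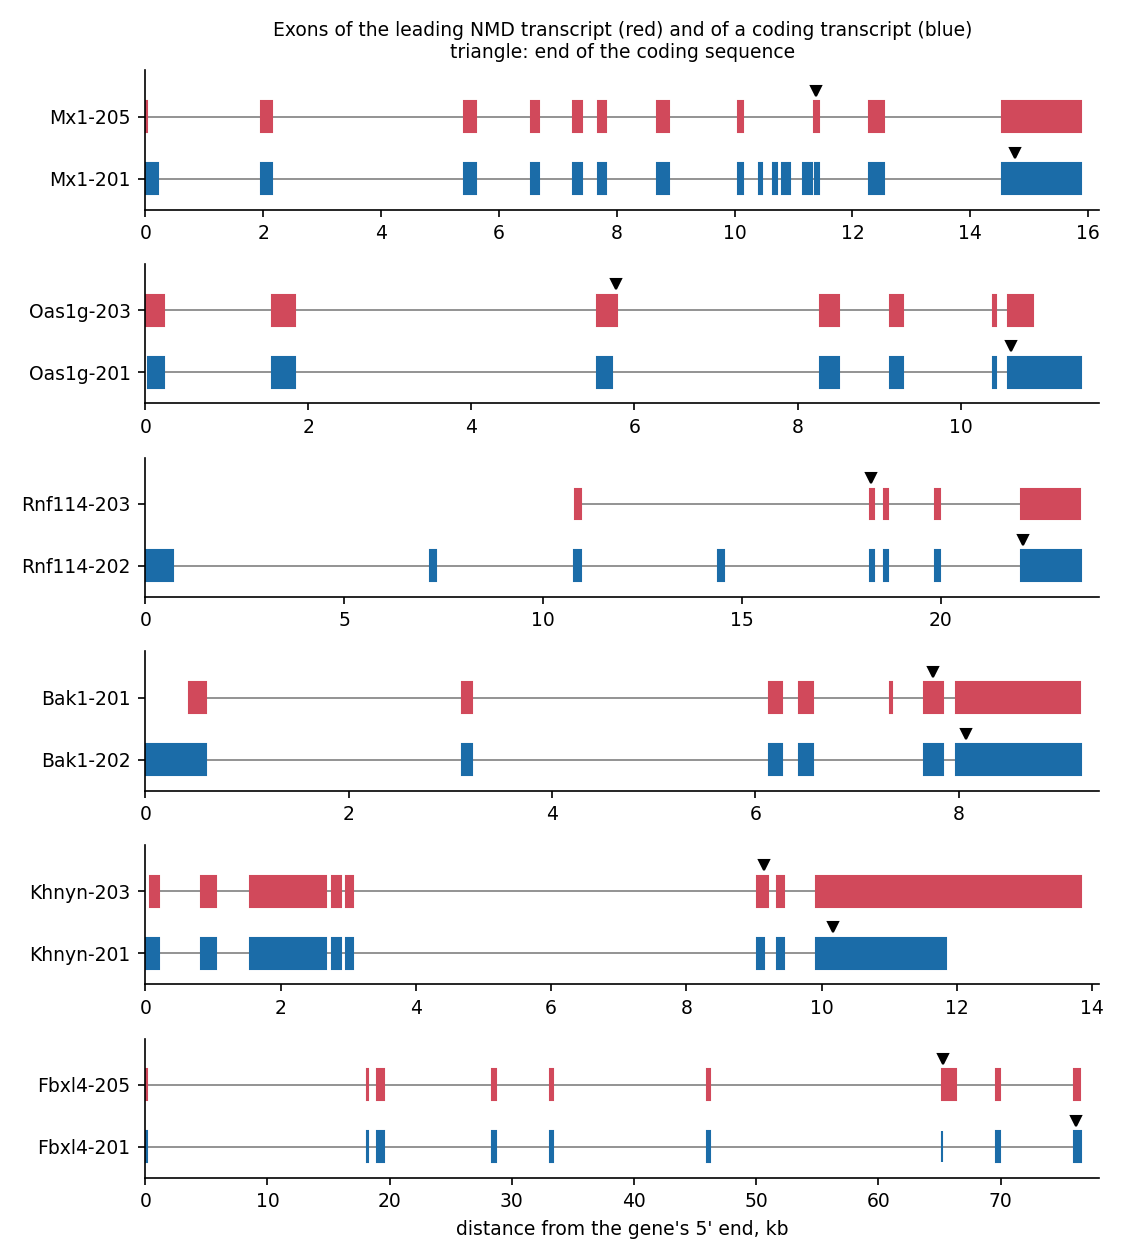
Exons (boxes) of the leading NMD transcript in red and of the reference coding transcript in blue for 6 members, in kb from the 5′ end of the gene. The triangle marks the end of the coding sequence, which comes earlier in the NMD transcript of each of the 6 genes.

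The 3 members with the highest mean TPM, Mx1, Oas1g and Gbp4, are interferon-response genes, and they are described first with other members that have a known role in immune cells or antiviral defence. Of these, only Mx1 is on the list of innate immunity genes. Mx1, an interferon-induced GTPase that restricts influenza virus and of which C57BL/6 mice are known to lack the functional protein (chromosome 16, 97447035 to 97462907, minus strand), had 504 TPM in replicate 1 and 969 in replicate 2. Its NMD transcripts summed to 340 and 497 TPM and its coding transcripts to 99.6 and 240 TPM. The NMD share was thus lower in replicate 2, where the gene was higher. Mx1-205 alone held 283 and 374 TPM, and the highest coding transcript, Mx1-202, 93.7 and 228 TPM. The reference for its structure, Mx1-201, was at 1.04 and 4.05 TPM. In the kallisto-layout table the NMD share of Mx1 was 43.7 and 33.5%, under the threshold in both libraries.

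Oas1g, of the family of 2′-5′-oligoadenylate synthetases that sense double-stranded RNA (chromosome 5, 120876142 to 120887613, minus strand), was at 100 and 131 TPM. Oas1g-203 held 55.5 and 77.6 TPM and the single coding transcript 16.0 and 19.0 TPM, and the rest was assigned to retained-intron transcripts. Gbp4, an interferon-inducible guanylate-binding protein on the same chromosome, was at 64.0 and 75.8 TPM with an NMD share of 58.4 and 54.0%. All 3 of these interferon-response genes belong to families of close paralogs, so the assignment of reads among relatives is uncertain, and 60 and 61 bases of Gbp4-202 also overlap exons of Gbp9 and Gbp8 on the same strand. The kallisto-layout shares of Oas1g (41.1 and 49.5%) and Gbp4 (42.9 and 38.0%) were under the threshold too.

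Rnf114, a RING-type ubiquitin ligase, was at 47.9 and 42.7 TPM, with 35.7 and 27.3 TPM in Rnf114-203 and 12.2 and 15.5 TPM in coding transcripts. Cd300c2, of the CD300 family of myeloid surface receptors, was at 38.4 and 52.0 TPM, and its NMD transcript and its coding transcript were close in replicate 2, at 28.5 and 23.5 TPM. Khnyn, whose human counterpart is a cofactor of the antiviral protein ZAP, was at 18.5 and 20.5 TPM and had an NMD share of 83.6 and 74.6%. Its only coding transcript held 0.27 and 1.64 TPM against 15.5 and 15.3 TPM for Khnyn-203. Sh2b3, an adaptor that dampens cytokine signalling, was at 19.3 and 20.6 TPM with a share of 66.7 and 64.4%. Mill2, an MHC class I-like gene, was at 10.3 and 7.68 TPM, and its share was 66.1 and 71.1% in the RSEM-layout table and 26.1 and 29.0% in the kallisto-layout table.

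Members with known roles in cell death, mitochondria or metabolism had mean shares from 53.3% in Ppcdc to 94.7% in Fbxl4. Bak1, which forms pores in the outer mitochondrial membrane during apoptosis, was at 21.5 and 17.6 TPM. Its NMD transcripts held 19.9 and 13.6 TPM and its coding transcripts 1.57 and 4.04 TPM, a share of 92.7 and 77.1%. In mouse neurons, inclusion of a Bak1 microexon that leads to NMD is known, and whether the 20-base exon described above is the same one was not tested. Fbxl4, an F-box protein of mitochondria that restrains mitophagy, had the highest mean share, 94.7 ± 2.37% (SD, n = 2), at only 7.74 and 6.61 TPM, with 0.54 and 0.24 TPM left to its coding transcript. It remained at 85.8 and 99.2% in the kallisto-layout table. Pnpla2, the adipose triglyceride lipase, was at 7.23 and 7.33 TPM with a share of 71.9 and 74.7%.

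The other members of this group were more varied. Ndufa3, an accessory subunit of respiratory complex I, had a share of 79.7% in replicate 1 and 55.1% in replicate 2, from 146 and 108 expected counts, and its leading NMD transcript of 343 bases has support level 5, the weakest that the annotation gives. Cdipt, which makes phosphatidylinositol, had a share of 64.1 and 59.5%, and Ppcdc, an enzyme of coenzyme A synthesis, 52.3 and 54.3%. Selenoo, a mitochondrial selenoprotein, was at 6.19 and 6.29 TPM, the lowest mean level of the members. The frame of its NMD transcript ends at TGA after 63 codons that it does not share with the reference. Hspbap1, a partner of a small heat shock protein, had a share of 79.6 and 72.0%, and its only coding transcript was listed at 0 TPM in replicate 1 and at 0.54 TPM in replicate 2.

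Nuclear and gene-expression proteins made up a further set. Rbmx, an X-linked RNA-binding protein of the splicing machinery, was at 17.8 and 12.9 TPM, and its share differed least between libraries, 58.1 ± 0.0916% (SD, n = 2), apart from Gm38394. Rbmx-205 had its stop outside the exons of the reference and shared all of its 289 codons with the first part of the 391-codon reference. Snapc3, a subunit of the complex that activates small nuclear RNA genes, had a share of 60.5 and 52.7%, and Snapc3-203 encodes the same 407 codons as its reference and has a junction after the stop. Pcnp, a nuclear protein with PEST sequences, had 88.3% in replicate 1 and 66.7% in replicate 2. Zmym5, a zinc-finger protein, had 69.1 and 58.4%, but 27.3 and 27.7% in the kallisto-layout table. Senp2, a SUMO protease, had 66.2 and 52.9%, and the start of Senp2-205 is not annotated. Tmf1, a golgin first described as a DNA-binding factor, had 59.2 and 64.6%, and Atrip, the partner of the checkpoint kinase ATR, 64.6 and 68.8%. Outside these groups were Zdhhc3, a palmitoyltransferase of the Golgi (72.2 and 61.2%), Pcnx (64.5 and 59.1%) and Ccdc167 (55.2 and 57.6%).

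Gm38394 and Evi2 were members through readthrough transcripts, which join exons of neighbouring genes. Gm38394-202, of the NMD class, and Gm38394-201, of the coding class, have the same sequence of 10156 bases, and each was given 22.97 TPM in replicate 1 and 13.80 TPM in replicate 2. Its share of 50% in both libraries and both tables is therefore an equal split of reads that cannot be assigned. Gm38394-202 also overlaps 5007 exon bases of Zbed6 on the same strand, and Zbed6 was listed at 0 TPM. It shares 4392 bases with one entry of Zc3h11a, at 113 and 57.7 TPM, and 4264 bases with another of that name, at 11.3 and 6.72 TPM, both on the same strand, so reads of this more abundant gene cannot be told apart there. Evi2-201 shares 1831 bases with Evi2b and 412 with Evi2a, which were at 91.2 and 44.9 TPM and at 141 and 126 TPM. The deposited posterior interval is a range of TPM that goes with the posterior mean TPM, and the listed TPM can lie outside it. For Evi2-201 it reached from near 0 to 9.84 TPM in replicate 1 and to 7.05 TPM in replicate 2, with 8.59 and 8.17 TPM listed. The coding transcript of Evi2 was listed at 3.22 and 0 TPM, so the share of 72.7 and 100% is poorly fixed.

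Other members also shared bases with neighbours. Exons of another gene overlapped the leading NMD transcript in 10 members, on the same strand in 4 and on the opposite strand in 6. Atrip-204 shared 1147 bases with Trex1, which was at 49.4 and 82.2 TPM against 9.25 and 9.40 TPM for Atrip. Khnyn-203 faced Sdr39u1 over 20.3% and Bak1-201 faced Ggnbp1 over 17.6% of its length, and both neighbours were under 4 TPM. Ccdc167-205 faced Cmtr1 over 11.7% of its length, and Cmtr1, at 45.6 and 52.1 TPM, exceeded Ccdc167, at 9.73 and 9.04 TPM. Snapc3-203 faced Psip1 (34.4 and 25.7 TPM) over 6.59% and Sh2b3-205 faced Atxn2 (57.3 and 44.1 TPM) over 2.30% of its length. With no strand setting given in the sources used here, opposite-strand reads cannot be told apart. Posterior intervals of the leading NMD transcript and of the highest coding transcript did not touch in either library in 17 members, among them Mx1, Oas1g, Gbp4, Rnf114, Bak1, Khnyn and Fbxl4. They touched in at least 1 library in the other 11, among them Cd300c2, Pcnp, Ndufa3, Selenoo, Gm38394 and Evi2. This sorting uses the intervals, not the listed TPM. Mx1-205, listed at 283 and 374 TPM, had intervals of 261 to 278 and 345 to 365 TPM.

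**Figure D3:**
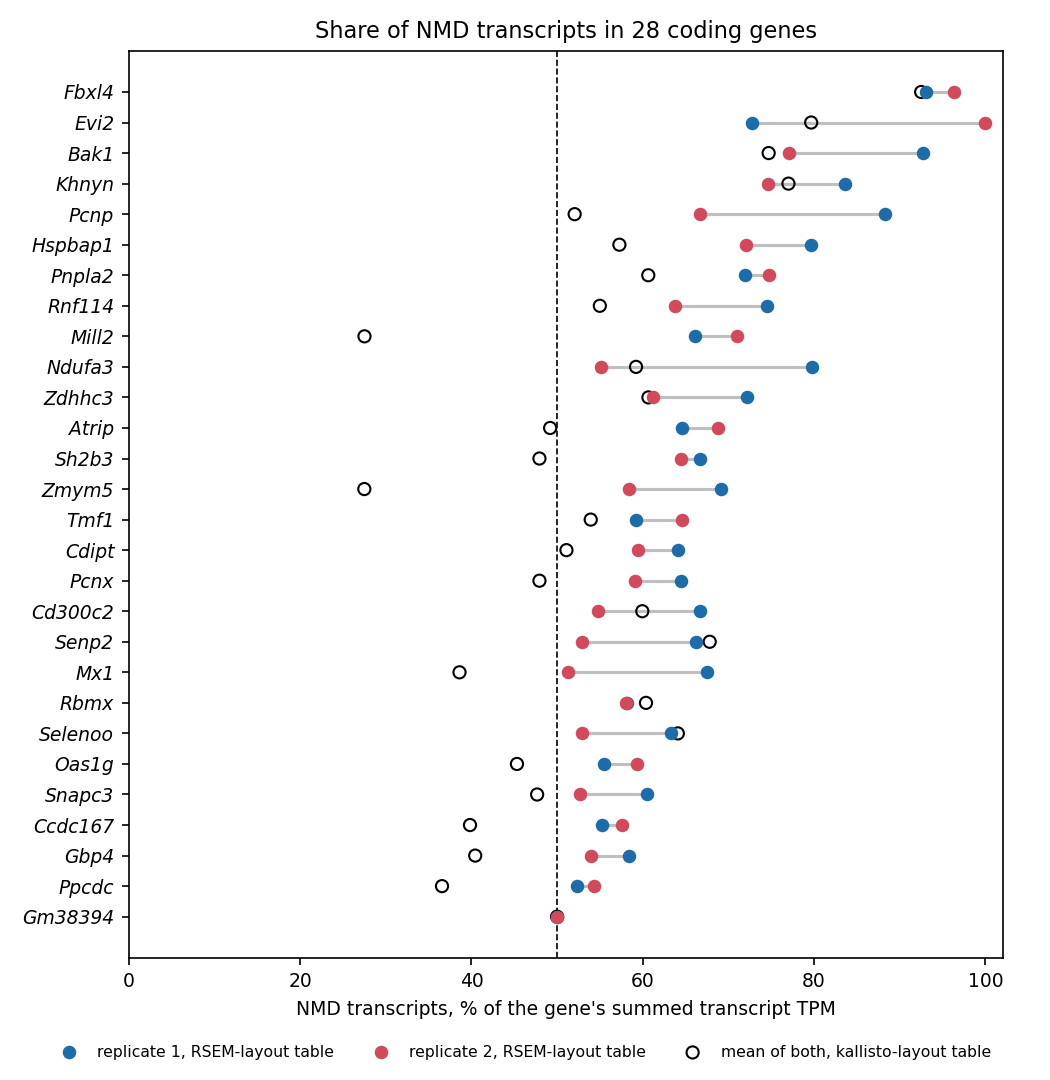
NMD share (x axis, % of summed transcript TPM) of each of the 28 members, with filled points for each library in the RSEM-layout table and open circles for the mean of both libraries in the kallisto-layout table. The dashed line is the 50% threshold, and the open circles of 11 members lie under it.

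The rest of the members' RNA was mostly coding. Coding transcripts held a median of 26.4 and 29.2% of summed transcript TPM in members and 60.2 and 60% in the other eligible genes. Retained-intron transcripts held a median of 0% in both libraries in members and 24.5 and 25.6% in the others. In 14 members there was none in either library, but some of these, Rnf114 and Cd300c2 among them, have no annotated transcript of that class. The number of other eligible genes with none was not counted. All classes of a gene sum to the whole, so a high NMD share limits the others. Classes beyond these held up to 19.0 and 18.5%, in Zmym5. Oas1g, Snapc3, Atrip, Senp2, Mx1 and Khnyn were among the members with a retained-intron share. The leading NMD transcripts were long and well supported, with a median of 2836.5 bases against 1244 bases in the others, and annotation support level 1, the best, in 19 members (67.9%) against 30.2%. An incomplete start was annotated in 2 members and in 638 of the others. A transcript was taken as leading by its TPM, so these features are not independent of the values that chose the members.

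**Figure D4:**
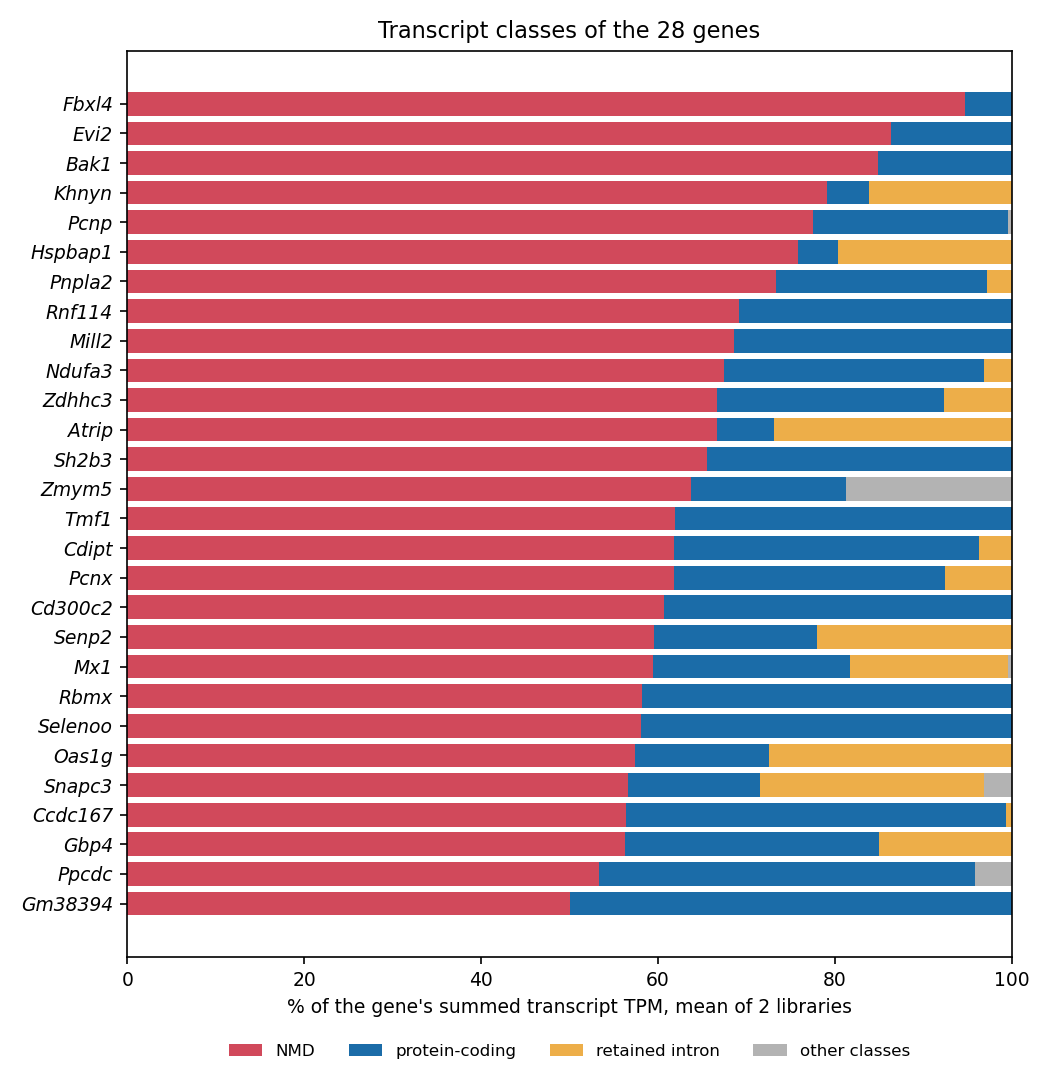
Stacked bars give the share of summed transcript TPM (x axis, %, mean of 2 libraries) that each annotated transcript class held in each member. NMD transcripts (red) fill 50% or more of every bar by choice of the members. Retained-intron transcripts (yellow) are missing in 14 of 28, some of which have none annotated.

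Between the libraries the median level of the members shifted by about as much as that of other genes. The median log2 ratio of replicate 2 over replicate 1, on the log2(TPM + 1) scale, was -0.24 over members, -0.23 over the other eligible genes and -0.22 over all 7581 genes at 5 TPM or more. Of the members, 0 were past 2-fold higher in replicate 2, where 1.15% of all genes were, and 2 were past 2-fold lower, where 2.77% were. Those 2 were Ndufa3, with 44.9 and 20.0 TPM, and Zmym5, with 28.2 and 13.5 TPM. Mx1 had the largest log2 ratio upward, 0.94, followed by Cd300c2 with 0.43 and Oas1g with 0.38. The NMD share was lower in replicate 2 in 18 members and higher in 9, with a median difference of -5.00 points. Among the other eligible genes it was lower in 737 and higher in 953, with a median difference of 0. The members were chosen on these shares, so this contrast is not independent of that choice.

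**Figure D5:**
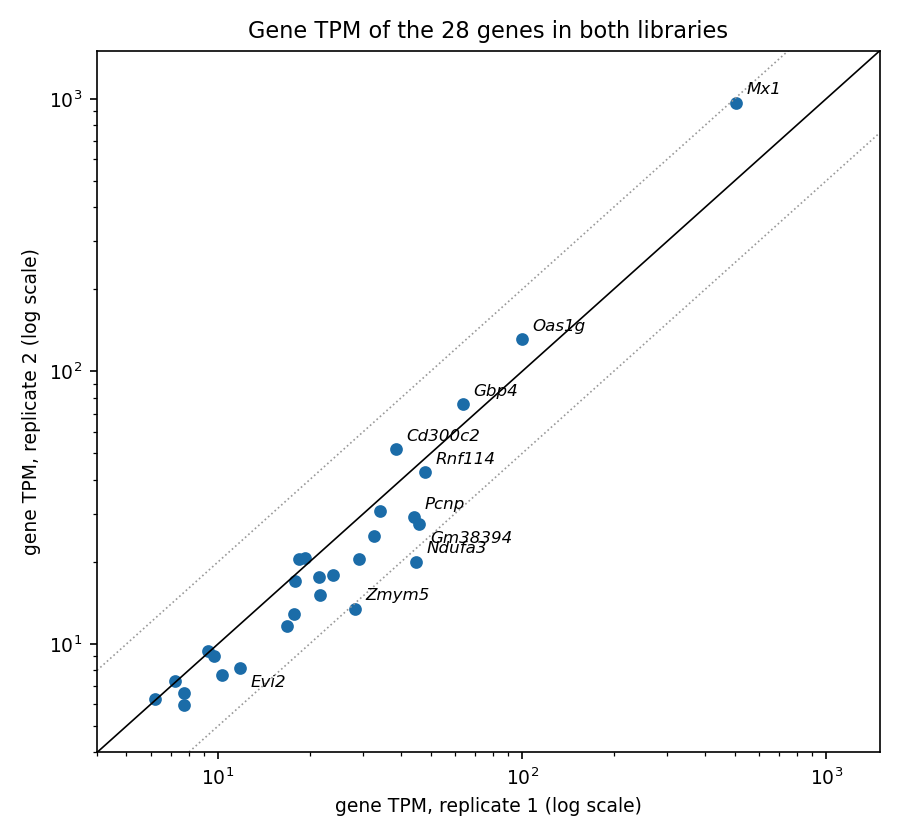
Gene TPM in replicate 1 (x axis) and replicate 2 (y axis), both on log scales, with 1 point per member. The solid line marks equal levels and the dotted lines 2-fold differences without a pseudocount, and 19 members lie below the solid line.

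The pathway that acts on such transcripts was present in these nuclei as RNA. Of 17 NMD factors, 14 were at 5 TPM or more in both libraries, with Smg1, the kinase that phosphorylates UPF1, at 86.7 ± 24.4 TPM (SD, n = 2), Pnrc2 at 29.3 ± 8.38 TPM and Smg5 at 24.0 ± 1.59 TPM. Only 3 of them were eligible, and 0 were members. Of 9 genes of the exon junction complex and its partners, 7 were at 5 TPM or more, led by Acin1 at 124 ± 26.5 TPM, Rnps1 at 27.8 ± 7.52 TPM and the core helicase Eif4a3 at 21.4 ± 6.60 TPM, and 0 were eligible. Of 10 genes known to respond to loss of NMD, 9 were at 5 TPM or more, led by Gadd45b at 158 ± 59.8 TPM, Cdkn1a at 127 ± 15.1 TPM and Atf4 at 99.4 ± 8.64 TPM. None of these 10 was eligible, so the members and this list share no gene.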

How the data were processed

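Both libraries were used, each with a gene table, a transcript table and a kallisto-layout transcript table. The deposited expected counts and TPM values of the first pair, with posterior mean TPM and its interval, have the column layout that RSEM writes, per the file headers. The kallisto-layout table holds the estimated counts and TPM that the authors deposited per transcript. The annotation is GENCODE M21 on mm10. The programs used, and whether strand was counted, are not stated per the labels, and 0 columns belonged to other samples.

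Transcript classes came from the transcript identifiers. Shares are sums of transcript TPM per class over the gene's summed transcript TPM. Ratios use log2(TPM + 1). The leading NMD transcript is the one with the highest mean TPM, with ties settled by the transcript identifier. Its exons, stop codon and sequence came from the annotation and its transcript sequences. Python 3.11.15, numpy 2.4.6, pandas 2.3.3 and matplotlib 3.10.9 were used, and the share and splice-comparison procedures were checked on simulated data. Levels in the kallisto-layout table are not on a common scale between libraries, since its median log2 ratio over genes was -1.87, and its levels appear only among the alternatives.

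Members and gene lists were chosen with earlier results of these data known. Named by rule were 22 members: the 12 with the highest TPM, the 8 with the highest share, the 5 nearest the threshold on each side, the 5 with the largest difference of share between libraries, the 5 with the largest drop in the kallisto-layout table, the 3 largest replicate ratios each way and those on a list, plus the top 3 of each pathway list. Atrip, Ccdc167, Pcnx, Rbmx, Sh2b3 and Zdhhc3 were named after their values were seen.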

Additional observations from a re-analysis of the deposited data

How the results depend on the processing

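The 28 members depend on where the lines are drawn. Their number was 43 by expected counts, 106 with NMD over NMD plus coding transcripts only, 58 at a minimum of 1 TPM, 62 at a threshold of 40%, 12 at 60%, and 47 to 67 when 1 library was left out, against 25 in the kallisto-layout table (13 in common), 23 by posterior mean TPM (all members), 30 without transcripts under 400 bases (27 in common) and 20 at 10 TPM. The mean of the 2 libraries' median shares, 62.9%, became 54.2% in the kallisto-layout table and 70.5% over NMD plus coding transcripts only. It became 55.03% at a threshold of 40% and 72.6% at 60%. The mean of the 2 libraries' median gene levels, 19.7 TPM, became 10.3 TPM in the kallisto-layout table and 25.7 TPM at a minimum of 10 TPM. The median log2 ratio of -0.24 became -1.86 in the kallisto-layout table, where that over all genes was -1.87, and -0.016 relative to all genes. The causes were not tested. All 28 stops also lay over 55 bases before the last junction.

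In single members, the mean share moved past its SD in 19 of 28 in the kallisto-layout table, where it was lower in 24 and under 50% in 11. It moved so in 12 by posterior mean TPM, 14 by expected counts and 13 over NMD plus coding transcripts only. Without transcripts under 400 bases the share of Ndufa3 was 0. No paired analysis was possible because the libraries form a single group. Depth limits Ndufa3 most, with 146 and 108 expected counts.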

Other observations

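Gene lists for this tissue held 0 or 1 members each, and with 1.3% of all eligible genes being members these counts are near the background. Of 50 splicing regulators, which often carry annotated NMD transcripts, 39 were eligible and 0 were members, and their median NMD share was 4.21% in replicate 1 and 4.95% in replicate 2. Ddx5, with 49.8% in replicate 1, is on this list. Of 90 genes of innate immunity and antigen presentation, 89 were at 5 TPM or more, 23 were eligible and 1, Mx1, was a member, and the median share of the eligible ones was 1.51 and 3.44%. Of 30 lysosomal genes 6 were eligible, of 30 genes of mitochondria and metabolism 10, and of 16 genes of nuclear export and surveillance 4, and 0 genes of these lists were members.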
